A study of Mus musculus with 8 samples.

Results

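Insulin and the insulin-like growth factors (IGFs) are secreted hormones that act through a pair of related receptor tyrosine kinases, the insulin receptor and the type 1 IGF receptor. The activated receptors phosphorylate insulin receptor substrate (IRS) proteins, which dock the kinase PI3K and pass the signal to AKT, mTOR and the FoxO transcription factors. Secreted IGF-binding proteins (IGFBPs) hold IGFs outside the cell, and the type 2 IGF receptor carries IGF2 to the lysosome. In the developing brain the pathway is known for promoting growth and survival of progenitors and neurons, and caveolin 1, the membrane protein encoded by Cav1, is known to bind the insulin receptor. The 10 genes described here are ligands (Igf1, Igf2), receptors (Insr, Igf1r, Igf2r), adaptors (Irs1, Irs2) and binding proteins (Igfbp2, Igfbp4, Igfbp5). They were chosen by name, with earlier results of these data known. All 10 have 1 row each among the 34299 genes of the count table.

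RNA was taken from the whole brain of mice in 3 groups: wild-type (WT) fetuses at gestation day 15, Cav1 knockout (KO) fetuses at gestation day 15, and KO mice at week 70. There were 3, 3 and 2 libraries, described as biological replicates for the fetal groups. Neither the strain, the knockout allele nor the sex is given in the labels, and no WT brain at week 70 was analysed here. Thus genotype was compared at day 15 only, age was compared within the knockout only, and the WT day 15 and KO week 70 levels are set side by side without a test.

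Total counts ranged from 19414747 to 20833397 in WT day 15, from 14110031 to 15245283 in KO day 15, and were 20203233 and 18924304 at week 70. Depth separated the fetal genotypes, and no batch is recorded, so batch and genotype cannot be told apart. Cav1 itself had 218 to 367 counts in WT, 0 to 3 in KO day 15, and 1 and 5 at week 70. Neuronal markers were abundant in every library, with a summed level of 6 markers of at least 2878 CPM (counts scaled to 1000000 per library). Processed pseudogenes took 3.55 to 3.69% of counts in WT day 15, 6.15 to 6.49% in KO day 15 and 0.306% in both week 70 libraries. The transcript Xist and 4 Y-linked genes together matched female tissue in all fetal libraries and in week 70 replicate 1 (at most 4 Y-linked counts), whereas week 70 replicate 2 held 2219 Y-linked counts. One further library stood apart: WT day 15 replicate 1 had a summed level of 4520 CPM for 7 fibroblast and meninges markers, against 304 and 509 CPM in the other WT libraries and 69.1 to 144 CPM in KO day 15. Cartilage, skeletal muscle and pituitary markers in this library summed to 695, 51.2 and 10.9 CPM. In WT replicates 2 and 3 these sums were 149 and 143, 7.25 and 8.07, and 3.06 and 3.03 CPM. WT replicate 1 also had the lowest neuronal sum of its group, 3737 CPM. Results that rest on that library are given with and without it.

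The members' positions are given on GRCm38, from GENCODE M 21. On chromosome 1, Igfbp2 (72824503 to 72852474, plus strand) and Igfbp5 (72857932 to 72874884, minus strand) are neighbours that point at each other, and Irs1 lies at 82233101 to 82291416. Igf1r (67952827 to 68233668) and the imprinted gene Igf2 (142650766 to 142666816) are on chromosome 7, and Insr (3122061 to 3279617) and Irs2 (10984681 to 11008458) on chromosome 8. Igf1 lies on chromosome 10 (87858265 to 87937042), Igfbp4 on chromosome 11 (99041244 to 99054392) and Igf2r on chromosome 17 (12682406 to 12769664). In that annotation Igf2 shares 3596 exonic bases with Gm49394 on its own strand and 98 with the antisense gene Igf2os. Irs1 shares 2822 bases with Gm9747 on the other strand, and Irs2 shares 162 with 9530052E02Rik. Gm49394 and Gm9747 have no row in the count table, whereas Igf2os and 9530052E02Rik do. How reads in shared exons were assigned is not given in the sources used here, so the levels of Igf2 and Irs1 in particular are uncertain by an unknown amount.

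Promoter windows of 300 bases, from 250 before to 50 after a start site, were available for 9 of the 10 members in RefSeq (GRCm38.p6). They are shown for the adaptors, whose mRNAs fell together at day 15 and parted at week 70. FoxO factors, which insulin signalling restrains, are known to bind the letters GTAAACA and CAAAACA. Both were searched on both strands, and matches are in capitals (TGTTTTG is CAAAACA read on the other strand). The windows are chr1:82291390-82291689 for Irs1 and chr8:11008880-11009179 for Irs2, both on the minus strand and printed 5′ to 3′ along the gene. The RefSeq window of Irs2 lies wholly upstream of its GENCODE position, which ends at 11008458, so the start sites of these annotations differ.

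Irs1: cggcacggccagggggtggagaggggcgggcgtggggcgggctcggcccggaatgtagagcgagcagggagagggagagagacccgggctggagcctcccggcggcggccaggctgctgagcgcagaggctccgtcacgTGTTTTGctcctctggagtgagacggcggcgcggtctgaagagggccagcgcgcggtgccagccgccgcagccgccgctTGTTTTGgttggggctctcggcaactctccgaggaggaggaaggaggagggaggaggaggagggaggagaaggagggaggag
Irs2: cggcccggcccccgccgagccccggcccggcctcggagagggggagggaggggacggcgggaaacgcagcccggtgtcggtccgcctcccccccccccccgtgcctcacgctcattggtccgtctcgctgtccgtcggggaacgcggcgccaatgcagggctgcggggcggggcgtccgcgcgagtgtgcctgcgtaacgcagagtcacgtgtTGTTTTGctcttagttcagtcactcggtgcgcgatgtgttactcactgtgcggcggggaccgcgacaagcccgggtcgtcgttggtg

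CAAAACA occurred 2 times in the Irs1 window and 1 time in that of Irs2, and in no window of the 7 other members that had one. It occurred in 6.28% of all 32851 promoter windows. GTAAACA occurred in none of the 13 windows of the members and in 3.65% of all windows. Both adaptor windows were rich in G and C (71.3% for Irs1 and 72.0% for Irs2, against a median of 52.7% over all windows), with 28 and 41 CpG pairs against a median of 7. A match of letters is a description of the window and not a binding site.

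The first comparison asked how these genes differed between the KO and WT fetal brains. Of the 10 members 9 fell in KO day 15, none rose, and Igf1 did not pass the test (edgeR, adjusted p under 0.05). Over all 19147 genes tested, 62.6% were called, 32.5% lower and 30.1% higher. The median log2 fold change of the members was -1.57, against 0.03 over all tested genes. Because the members were chosen with earlier results known, these contrasts describe the list and do not test it against all genes. CPM did not overlap between the genotypes for the 9 called members, as for 68.5% of all tested genes.

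Fold changes between the genotypes ran with transcript length and GC content over all genes (Spearman's rho of -0.37 and -0.48 across genes, which are not independent replicates). By their longest transcript, 9 members were longer than the median tested gene (2992 bases) and Igfbp2 was shorter, and 8 of 10 had more GC than the median of 49.2%. Values from a fit with length and GC offsets are therefore given beside the results of the members. With these offsets, the same 9 members were called lower, where 25.1% of all genes were called lower and 26% higher, and the members' median was -0.99.

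**Figure D1:**
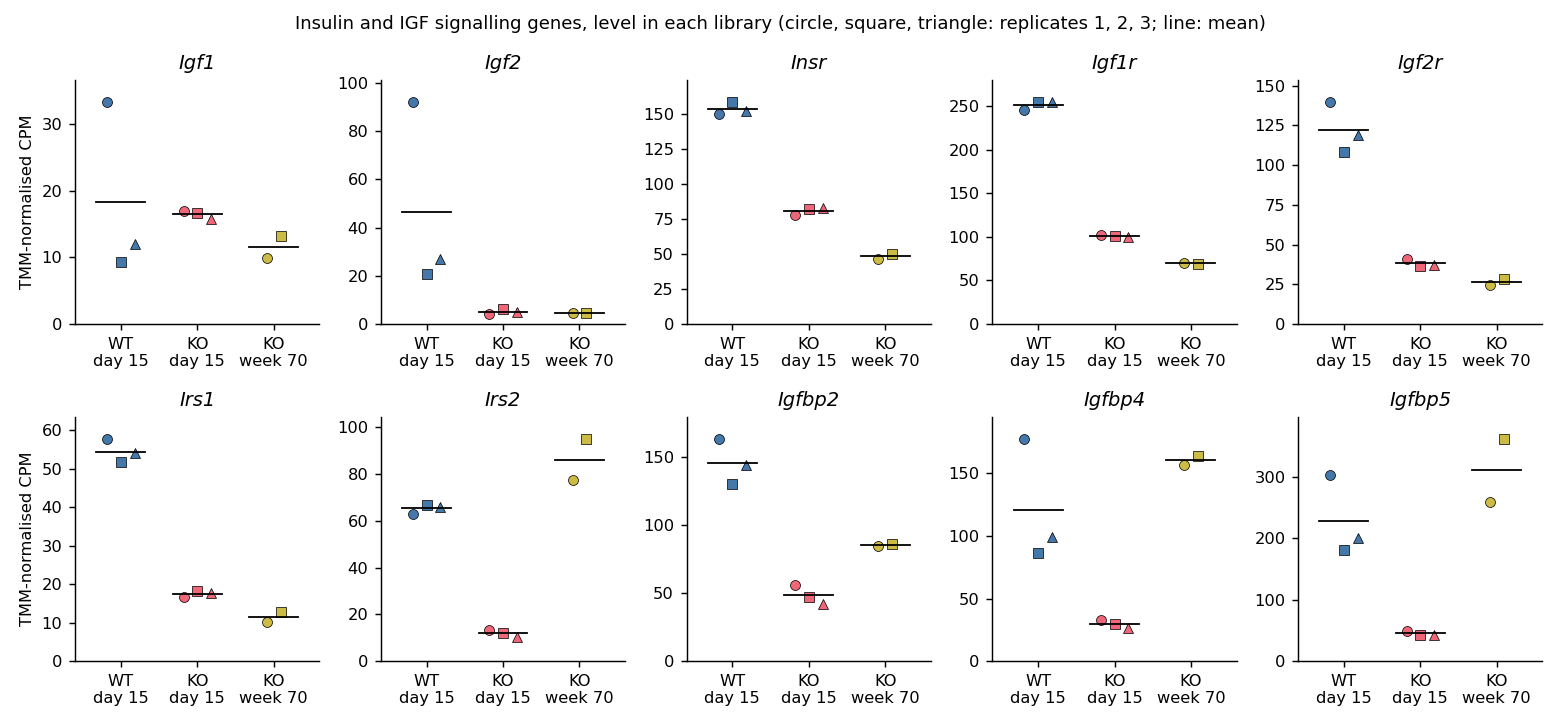
Level of each member in each library (y axis, CPM after TMM scaling, from 0), by group (x axis), with circles, squares and triangles for replicates 1, 2 and 3 and a line at the mean. KO day 15 lies below WT day 15 for every member but Igf1, and Irs2, Igfbp2, Igfbp4 and Igfbp5 stand higher again at week 70.

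Among the ligands, Igf2, the main fetal growth factor of the family, was at 92.0, 20.6 and 26.9 normalised CPM in WT day 15 replicates 1 to 3. In KO day 15 it was at 4.19, 6.13 and 4.84 CPM. All 3 KO libraries lay below the lowest WT library, and the WT spread came from replicate 1. Its log2 fold change was -3.11 (SE 0.523, adjusted p 0.000423 in edgeR), the largest among the members with all libraries. Without WT replicate 1 it was -2.16 (adjusted p 5.88e-07, edgeR), smaller than that of Irs2 (-2.40), and with length and GC offsets it was -2.34. Igf2 therefore stayed lower in KO with or without the library that was rich in fibroblast markers. In the remaining fetal libraries those markers were also lower in KO, and their part in the fall of Igf2 was not tested. In whole-brain RNA, fewer cells of a type and less RNA per cell cannot be told apart.

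H19, the imprinted noncoding RNA beside Igf2, was at 602, 144 and 175 CPM in WT and at 131, 260 and 200 CPM in KO day 15. The groups overlapped, and the change of -0.55 on the log2 scale was not called (edgeR, adjusted p 0.316). Without WT replicate 1 the change was 0.37, again not called (edgeR, adjusted p 0.144), so that the sign rested on that library. Igf2os, the antisense RNA, was called lower, with a log2 fold change of -1.56 (SE 0.317, edgeR adjusted p 0.00149) on 28 to 53 counts in WT and 9 to 11 in KO. It was -0.76 and not called with length and GC offsets (edgeR, adjusted p 0.0638).

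Igf1, a growth factor that neurons and glia make in small amounts in the fetal brain, was at 33.3, 9.39 and 12.1 CPM in WT and at 17.0, 16.7 and 15.8 CPM in KO day 15. WT replicate 1 was above every KO library, while the other WT libraries were below all of them. The log2 fold change was -0.06 (SE 0.367, edgeR adjusted p 0.895). Without WT replicate 1 it was 0.69 and was called (edgeR, adjusted p 0.000752), so that a single library set both its sign and its call. The sign also turned with upper-quartile scaling, to 0.11.

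The tyrosine kinase receptors fell by less than the ligand Igf2, and their libraries were closely grouped. Igf1r, the main receptor for both IGFs, was at 246, 255 and 255 CPM in WT and at 102, 101 and 100 CPM in KO. Its log2 fold change was -1.23 (SE 0.055, adjusted p 4.2e-08 in edgeR), and -0.63 with length and GC offsets. Insr, the insulin receptor, was at 150, 158 and 152 CPM in WT and at 77.8, 82.0 and 82.7 CPM in KO, a log2 fold change of -0.84 (SE 0.058, edgeR adjusted p 6.22e-07) that was -0.39 with the offsets. Insr had the smallest change of the 9 called members.

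Igf2r, which clears IGF2 from the cell surface, was at 140, 108 and 119 CPM in WT and at 41.2, 36.2 and 37.2 CPM in KO. The genotypes did not overlap, and the log2 fold change of -1.59 (SE 0.09, adjusted p 1.56e-07 in edgeR) was -0.85 with the offsets. Thus the receptor that removes IGF2 and the ligand itself were both lower in KO.

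The adaptors were lower in KO and differed from each other in size. Irs1 was at 57.7, 51.7 and 54.1 CPM in WT and at 16.7, 18.3 and 17.8 CPM in KO, and its log2 fold change was -1.54 (SE 0.075, edgeR adjusted p 6.37e-08). Irs2 was at 62.7, 66.8 and 66.0 CPM in WT and at 13.3, 12.3 and 10.4 CPM in KO. No KO library came near the WT range of Irs2, which spanned 62.7 to 66.8 CPM. The log2 fold change of Irs2 was -2.35 (SE 0.09, adjusted p 2.1e-08 in edgeR). With length and GC offsets the changes were -0.85 for Irs1 and -1.40 for Irs2.

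All 3 binding proteins fell. Igfbp2, which progenitors and the choroid plexus are known to secrete, was at 163, 130 and 144 CPM in WT and at 56.0, 47.3 and 42.2 CPM in KO, a log2 fold change of -1.50 (SE 0.102, edgeR adjusted p 5.4e-07). Igfbp4, an inhibitor of IGF action, was at 177, 86.0 and 99.5 CPM in WT and at 33.3, 29.8 and 26.7 CPM in KO. Its log2 fold change was -1.92 (SE 0.227, adjusted p 3.2e-05 in edgeR), and -1.57 without WT replicate 1. Igfbp5, a binding protein also held in the extracellular matrix, was at 304, 181 and 200 CPM in WT and at 50.2, 43.7 and 43.5 CPM in KO. It gave a log2 fold change of -2.23 (SE 0.165, edgeR adjusted p 1.01e-06), and -1.99 without WT replicate 1. The same WT library was the highest of its group for all 3 binding proteins, and the groups did not overlap for any of them. With length and GC offsets the changes were -1.13 for Igfbp2, -1.34 for Igfbp4 and -1.65 for Igfbp5.

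**Figure D2:**
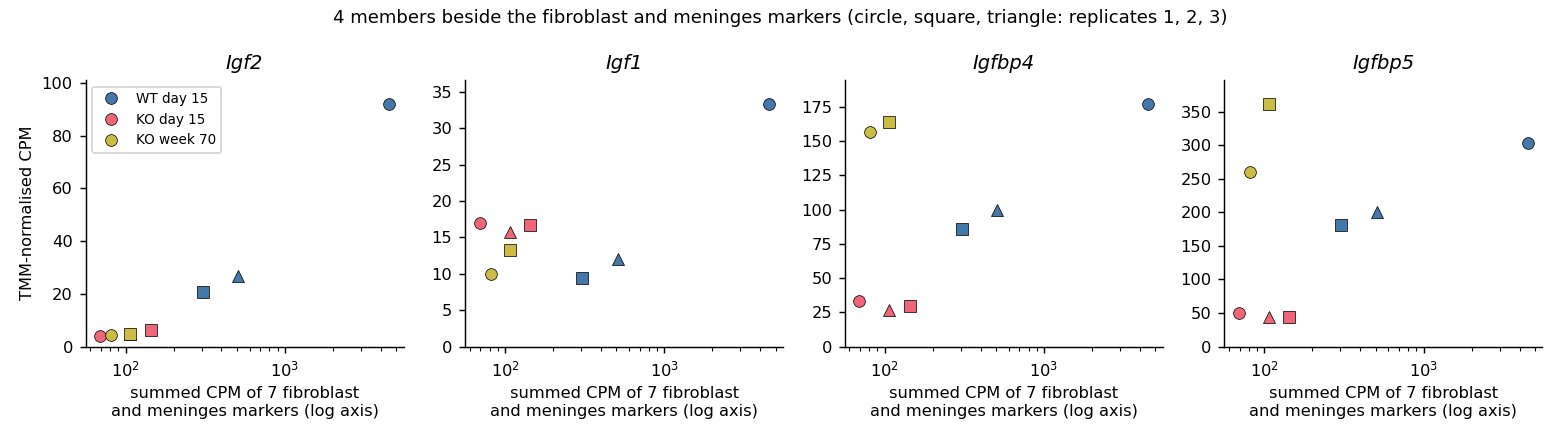
Normalised CPM of Igf2, Igf1, Igfbp4 and Igfbp5 (y axes, from 0) against the summed CPM of 7 fibroblast and meninges markers (x axis, log scale) in each of the 8 libraries, coloured by group. WT day 15 replicate 1, at 4520 CPM of markers, has the highest Igf2 and Igf1, whereas Igfbp5 at week 70 is high with marker sums of 81.0 and 107 CPM.

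Markers of other cell types moved with the genotypes. Of 7 fibroblast and meninges markers 4 were called lower in KO day 15 and none higher, and the group ranges of their sum did not overlap (304 to 4520 CPM in WT, 69.1 to 144 CPM in KO). All 6 endothelial markers and all 6 progenitor markers were called lower, with summed levels of 175 to 239 against 49.8 to 65.0 CPM and 1070 to 1190 against 387 to 421 CPM. Choroid plexus markers, of which 3 of 7 were called lower and 1 higher, overlapped in their sum (339 to 453 CPM in WT and 305 to 390 CPM in KO). No marker of these 4 lists was at 0 in any library. All 4 tested cartilage markers (142.7 to 695 against 73.5 to 82.7 CPM) and 5 of 7 pericyte markers (155 to 202 against 131 to 144 CPM) were also lower, with 1 pericyte marker higher. Of 6 erythroid markers 5 were higher and 1 lower (915 to 1028 against 2991 to 3723 CPM), and of 5 tested oligodendrocyte markers 2 were higher and 2 lower. Of the neuronal markers 4 of 6 were lower and 2 higher, of the astrocyte markers 4 of 6 lower and 1 higher, and of the microglia markers 3 of 6 lower and 1 higher. Skeletal muscle and skin lists had no call, and of 2 tested pituitary markers 1 was lower. The part of these cells in the falls of the members was not tested.

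The second comparison asked how the members differ between KO brains at week 70 and at day 15. Here 4 members rose (Irs2, Igfbp2, Igfbp4 and Igfbp5), 5 fell (Igf1, Insr, Igf1r, Igf2r and Irs1) and Igf2 did not pass the test. Over all 20000 genes tested, 82% were called, 37.6% higher and 44.4% lower, and 87.7% had CPM ranges that lay apart. The 9 called members also had no overlap. Their shares were therefore near those of all genes, and the sizes of the changes carry the description. With length and GC offsets 4 members were called higher and 5 lower, where 39.6% and 39.2% of all genes were. The pseudogene share and sex given above differ between these libraries as well, and their part in the changes was not tested.

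Irs2 was at 77.4 and 94.6 CPM in the week 70 replicates, against 10.4 to 13.3 CPM in KO day 15, a log2 fold change of 2.74 (SE 0.124, edgeR adjusted p 8.87e-09) that was 1.82 with the offsets. Irs2 and Igfbp5 had the largest rises of the members in both fits, Irs2 the larger without the offsets and Igfbp5 with them. Irs1 was at 10.1 and 12.9 CPM and fell, with a log2 fold change of -0.71 (SE 0.151, adjusted p 0.00129 in edgeR) that was -0.93 with the offsets. The adaptors thus moved in opposite directions with age in the knockout. The week 70 level of Irs2 stood above the WT day 15 range of 62.7 to 66.8 CPM, while that of Irs1 lay below its WT range of 51.7 to 57.7 CPM.

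Igfbp5 was at 260 and 361 CPM and Igfbp4 at 157 and 164 CPM at week 70, with log2 fold changes of 2.66 (SE 0.131) and 2.32 (SE 0.098) and adjusted p of 1.68e-08 and 5.37e-09 in edgeR. With length and GC offsets they were 2.25 and 1.61. Igfbp2 was at 84.6 and 86.3 CPM, a smaller rise of 0.72 on the log2 scale (SE 0.111, edgeR adjusted p 0.000139). The call of Igfbp2 was lost with the offsets (0.18, edgeR adjusted p 0.0652). Neighbouring on chromosome 1, Igfbp5 and Igfbp2 both fell at day 15 in KO and both stood higher at week 70, but by different amounts.

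The receptors were lower at week 70 than in KO day 15. At week 70 Insr was at 46.2 and 50.1 CPM, Igf1r at 70.5 and 68.6 CPM and Igf2r at 24.8 and 28.6 CPM. Their log2 fold changes against KO day 15 were -0.85 (SE 0.088), -0.64 (SE 0.082) and -0.61 (SE 0.109), with adjusted p of 6.89e-06, 3.6e-05 and 0.000399 in edgeR. The offsets gave -0.67, -0.56 and -0.93. Each receptor was therefore highest in WT day 15, intermediate in KO day 15 and lowest in KO week 70, with no overlap between any of these groups.

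Among the ligands, Igf2 was at 4.38 and 4.66 CPM at week 70, within the KO day 15 range of 4.19 to 6.13 CPM. Its log2 fold change of -0.26 (SE 0.248, edgeR adjusted p 0.348) was -1.11 and called lower with the offsets (edgeR, adjusted p 0.0021). Igf1 was at 9.93 and 13.3 CPM, a log2 fold change of -0.61 (SE 0.158, edgeR adjusted p 0.0047) that turned to 0.42 and was called higher with the offsets (edgeR, adjusted p 0.0297). The longest Igf1 transcript had the lowest GC content of the members, 37.96%. The 7 choroid plexus markers summed to 72.4 CPM in week 70 replicate 1 and 2397 CPM in replicate 2, and their part in the levels of the ligands was not tested.

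**Figure D3:**
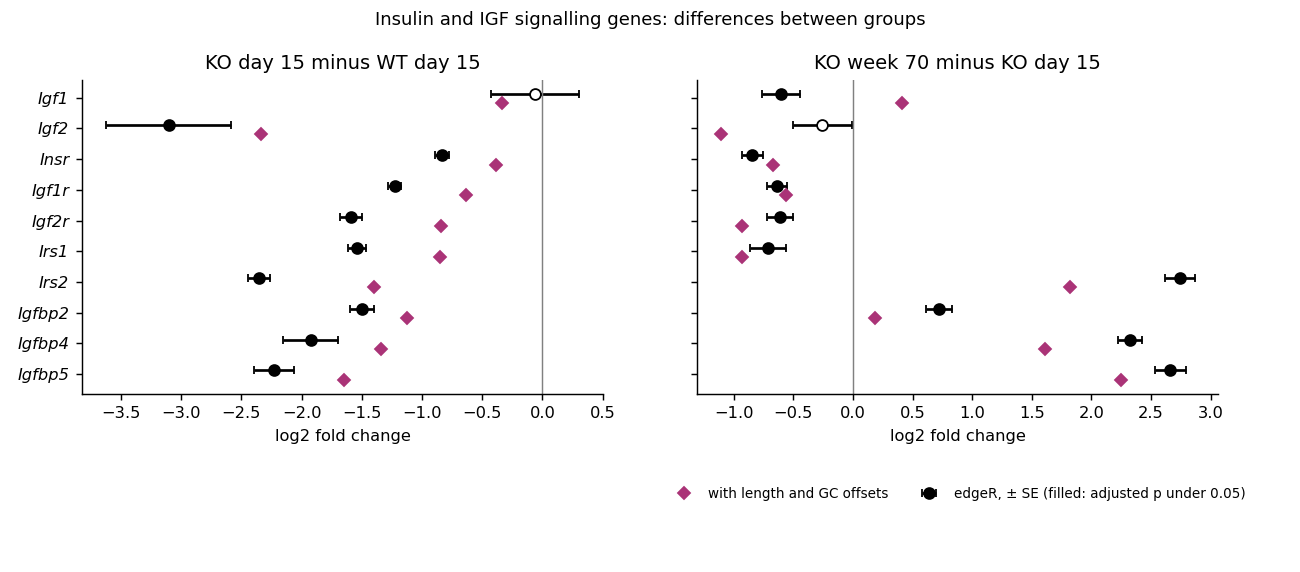
Log2 fold change of each member between KO and WT at day 15 (left) and between week 70 and day 15 in KO (right), with black circles for the edgeR value ± SE (filled where adjusted p was under 0.05) and diamonds for the value with length and GC offsets. At day 15 the 9 called members lie left of 0 under both, and at week 70 Irs2, Igfbp4 and Igfbp5 lie beyond 1.5 to the right under both, while Igf1 lies on opposite sides of 0.

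Levels per length, in CPM per kilobase of merged exons and without the length and GC offsets, allow the members to be ranked within a group. In WT day 15 Igfbp2 was highest, at 78.8 ± 8.93 CPM per kb (SD, n = 3), followed by Igfbp5 at 38 ± 10.97 and Igfbp4 at 27.4 ± 11.1, whose libraries overlapped. The receptors followed at 15.0 ± 0.305 for Igf1r, 13.1 ± 1.71 for Igf2r and 11.2 ± 0.318 for Insr, of which Igf1r and Igf2r overlapped. Below them were Irs2 (10.3 ± 0.344), Igf2 (8.13 ± 6.91), Irs1 (5.96 ± 0.329) and Igf1 (1.84 ± 1.32), of which Igf1 stood apart. The mean of Igf2 rested on WT replicate 1, at 16.1 CPM per kb, so that its range took in both adaptors and all 3 receptors. In the other WT libraries Igf2 was at 3.59 and 4.71 CPM per kb, below every library of Irs1.

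In KO day 15 Igfbp2 was still highest, at 26.3 ± 3.77 CPM per kb (SD, n = 3), and stood apart from all others. Igfbp5, Igfbp4, Igf1r and Insr lay between 5.88 and 7.63 CPM per kb on average, and each overlapped with the next. Below them stood Igf2r at 4.10 ± 0.281, and then Irs1, Irs2 and Igf1, each of which overlapped with the next. Igf2 was now the lowest, at 0.883 ± 0.173 CPM per kb, below Igf1 at 1.66 ± 0.0643. At week 70 Igfbp5 (51.7 CPM per kb) and Igfbp2 (46.3 CPM per kb) overlapped at the top, Igfbp4 was at 36.3, and Irs2, at 13.6 CPM per kb, stood above all 3 receptors.

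Ratios between members within a library do not depend on the scaling of libraries, but they carry no length and GC offsets. By age, Igf2 over Igf1 changed by 0.38 on the log2 scale, with overlap. The fits with the offsets gave -1.11 for Igf2 and 0.42 for Igf1, which go the other way. Per kilobase, Irs2 over Irs1 was 1.57, 1.87 and 1.76 in the WT fetuses, 1.16, 0.967 and 0.846 in the KO fetuses, and 11.1 and 10.6 at week 70. By these counts, the adaptor mRNAs stood within 1.87 times of each other in every fetal library. In the old KO brain Irs2 exceeded Irs1 by 10.6 times or more. By age, the fits with the offsets gave smaller rises for Irs2 (1.82) and a fall for Irs1 (-0.93). How reads in the shared exons of Irs1 were assigned is not given, so this ratio is uncertain too. Igf2 over Igf1 was 4.78, 3.79 and 3.86 in WT fetuses and 0.427, 0.636 and 0.531 in KO day 15. Counts per kilobase were thus higher for Igf2 in every WT library and for Igf1 in every KO library. Which ligand mRNA was the more abundant may also depend on how reads in the shared exons of Igf2 were assigned, which is not given. WT replicate 1, high for both ligands, gave a ratio near those of the other WT libraries, and at week 70 the ratio was 0.764 and 0.607.

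Igf1r over Insr was 1.32 to 1.37 in WT and 0.993 to 1.07 in KO day 15, and Igf2r over Igf1r was 0.768 to 1.02 and 0.645 to 0.730. Igfbp5 over Igfbp2 was 0.427 to 0.573 in WT, 0.276 to 0.317 in KO day 15, and 0.944 and 1.29 at week 70. For Igfbp4 over Igfbp2 the ranges were 0.277 to 0.455, 0.248 to 0.264, and 0.774 to 0.793. All 6 ratios differed between the fetal genotypes without overlap. Each gave a two-sided exact permutation p of 0.1, the smallest that 3 against 3 libraries allow, and 0.2 after adjustment over the 12 comparisons made. How often other gene pairs separate was not computed, and CPM of single genes did not overlap for 68.5% of all tested genes. By age, Irs2/Irs1, Igf1r/Insr and both ratios to Igfbp2 did not overlap (exact permutation p of 0.2 each, the smallest that 3 against 2 allow, adjusted 0.24), while Igf2/Igf1 and Igf2r/Igf1r overlapped (0.4 and 1).

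**Figure D4:**
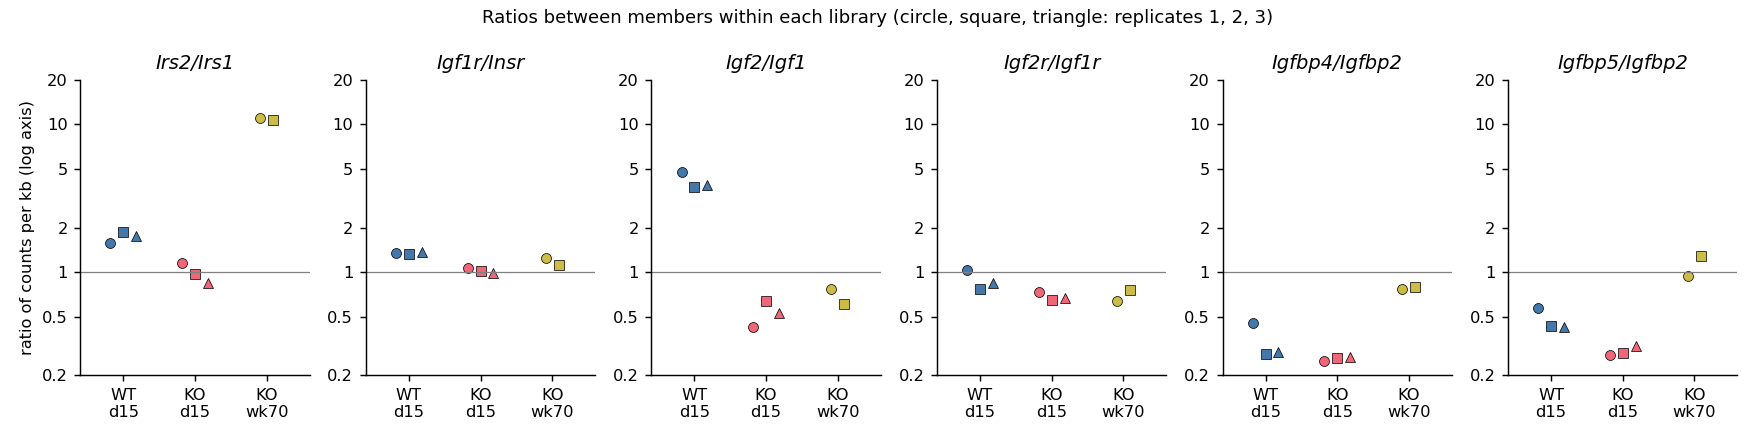
Ratio of counts per kilobase between pairs of members in each library (y axis, log scale), by group (x axis), with circles, squares and triangles for replicates 1, 2 and 3. Irs2 over Irs1 stands at 11.1 and 10.6 at week 70, and Igf2 over Igf1 drops from 3.79 or more in WT to 0.636 or less in KO day 15.

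The other genes of the pathway were read from 6 lists with 81 genes, of which 80 have a row in the table and 76 were tested. These lists were also chosen with earlier results known, so their shares are descriptions beside those of all genes. At day 15, 57 were lower in KO, 3 were higher and 16 did not pass the test in edgeR, and their median was -0.61 on the log2 scale. Among all tested genes 32.5% were lower and 30.1% higher. With length and GC offsets 34 were lower, 13 higher and 29 not called, and the median was -0.20, where 25.1% of all genes were lower and 26% higher. Of the 60 called genes 12 had the opposite sign with the offsets, 5 of them called. Without WT replicate 1 the counts were 55 lower and 3 higher.

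The other ligands, receptors and binding proteins had 7 of 10 tested genes lower and none higher, and with the offsets 5 lower and 1 higher. Htra1, a protease that cleaves IGFBPs, was at 20.01, 11.4 and 12.6 CPM in WT and at 2.79 to 3.15 CPM in KO (log2 fold change -2.21, SE 0.217, and -1.89 with the offsets). Igfbp7 changed by -1.79 (SE 0.198, and -1.62 with the offsets) and is known as a vascular protein. Of the adaptors and brakes at the receptor 15 of 17 were lower, and 8 of 17 with the offsets, with none higher in either fit. Gab1, a docking protein, and Grb10, an imprinted inhibitor of both receptor kinases, fell by 1.84 and 1.38 on the log2 scale, and by 1.27 and 1.03 with the offsets. Grb10 was at 310, 230 and 207 CPM in WT and at 87.3 to 93.6 CPM in KO, without overlap.

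Of the PI3K and AKT genes 12 of 15 were lower at day 15 and 6 of 15 with the offsets, where 4 were higher. Phlpp1, a phosphatase of AKT, was at 68.5 to 75.6 CPM in WT and at 17.1 to 20.2 CPM in KO (log2 fold change -1.87, and -0.99 with the offsets). The change of the lipid phosphatase gene Inppl1, -1.03, was -0.19 with the offsets and no longer called (edgeR, adjusted p 0.0695).

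In the mTOR and GSK3 branch 8 of 15 were lower and 2 higher, and with the offsets 5 were lower and 5 higher. Rptor, which encodes the scaffold of mTOR complex 1, changed by -1.53 (SE 0.061) and Eif4ebp2, a repressor of translation that mTOR controls, by -1.38 (SE 0.06), and with the offsets by -0.56 and -0.70. Rheb, the small GTPase that activates mTOR, rose by 0.52 (SE 0.052, and 0.46 with the offsets). The S6 kinase gene Rps6kb1 rose by 0.48 (SE 0.066), which was 0.15 with the offsets (edgeR, adjusted p 0.025) and not called when the replicate block was added to them (edgeR, adjusted p 0.0553).

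Of the FoxO factors and genes they are known to activate, 12 of 14 were lower and 1 higher, and with the offsets 10 were lower and 2 higher. Foxo6, a FoxO factor expressed mainly in neurons, was at 76.4 to 79.4 CPM in WT and at 8.14 to 14.4 CPM in KO, and its log2 fold change was -2.60 (SE 0.152), and -1.73 with the offsets. Foxo1 was at 17.6 to 20.4 and 3.83 to 6.09 CPM (-1.90, SE 0.169, and -1.33 with the offsets). Ccng2, for a cyclin of non-dividing cells, was the called rise of the list, at 0.39 (SE 0.061, and 0.22 with the offsets). The mRNA-binding protein genes Igf2bp1 and Igf2bp2, whose products bind Igf2 mRNA, changed by -0.47 and -0.38, and with the offsets these values were 0.24 and 0.04. In their list, which also holds Igf2bp3, H19 and Igf2os, 3 of 5 were lower, and with the offsets none was lower and 1 was higher. Every named change that was called at day 15 in these lists had an adjusted p of at most 0.00171 in edgeR.

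At week 70 against KO day 15, 41 of the 76 genes were higher, 29 lower and 6 not called, with a median of 0.38, where 82% of all genes were called, 37.6% higher and 44.4% lower. With the offsets 33 were higher and 33 lower, and the median was -0.07. Of the 70 called genes 11 had the opposite sign with the offsets, 8 of them called. Of the FoxO list 10 of 14 were higher, among them Pdk4, a kinase that blocks pyruvate entry into the TCA cycle (0.778 to 1.08 against 22.3 and 16.3 CPM, log2 fold change 4.21), and Foxo3 (2.86). Ccng2 and Bcl2l11, for a death-promoting BCL2 relative, fell by 1.64 and 0.88. PI3K and AKT genes had 10 of 15 higher, led by Phlpp1 (3.29) and the blood-cell and microglial phosphatase gene Inpp5d (2.41), and 4 lower, with Pik3r3 (-1.38).

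Binding proteins and their proteases changed in both directions with age (3 of 10 higher, 6 lower, and with the offsets 3 and 5). Igfbp6 had 4, 13 and 6 counts in KO day 15 and 1321 and 985 at week 70, a log2 fold change of 7.32 (SE 0.237). Htra1 went from 2.79 to 3.15 CPM to 266 and 228 CPM (6.27, SE 0.122). Igfbpl1, a relative made by immature neurons, went from 154 to 195 CPM to 0.645 and 5.41 CPM (-5.97), and Pappa2, a protease of IGFBPs, changed by -3.26. Of the receptor adaptors and brakes 8 of 17 were higher, with Shc3 (2.95) and Gab1 (1.84), and 7 lower, with Sh2b2 (-2.44) and Socs2 (-2.04). With the offsets these counts turned to 6 higher and 8 lower. The mTOR and GSK3 branch had 10 of 15 higher, with the mTOR inhibitor Deptor (3.78) and Gsk3a (1.89), and 5 lower, with Rps6kb2 (-1.52) and Rictor (-1.24), which turned to 6 higher and 8 lower with the offsets.

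Of the IGF2 mRNA-binding proteins and imprinted neighbours 4 of 5 were lower at week 70 and none higher. H19 held 2182 to 4713 counts in KO day 15 and 18 and 12 at week 70 (log2 fold change -7.71, SE 0.39). Igf2bp1 held 715 to 877 counts in KO day 15 and 0 and 3 at week 70, which makes it at least 229-fold lower against a floor of 3 counts per library. Igf2 itself, beside H19 on chromosome 7, held 70 to 111 counts in KO day 15 and 68 in each week 70 library. Markers of several cell types also separated the ages. All 6 oligodendrocyte, all 6 astrocyte and all 6 microglia markers were higher at week 70, with sums of at least 13002, 7815 and 337 CPM against at most 82.4, 241 and 24.6 CPM. All 6 endothelial markers were higher (290 to 312 against 49.8 to 65.0 CPM), as were 4 of 7 pericyte markers, with 1 lower, and 4 of 6 neuronal markers, with 2 lower. All 6 erythroid markers were lower (423 to 724 against 2991 to 3723 CPM), as were 5 of 6 progenitor markers (201 to 215 against 387 to 421 CPM), with 1 higher. Their part in the changes of the pathway genes was not tested.

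**Figure D5:**
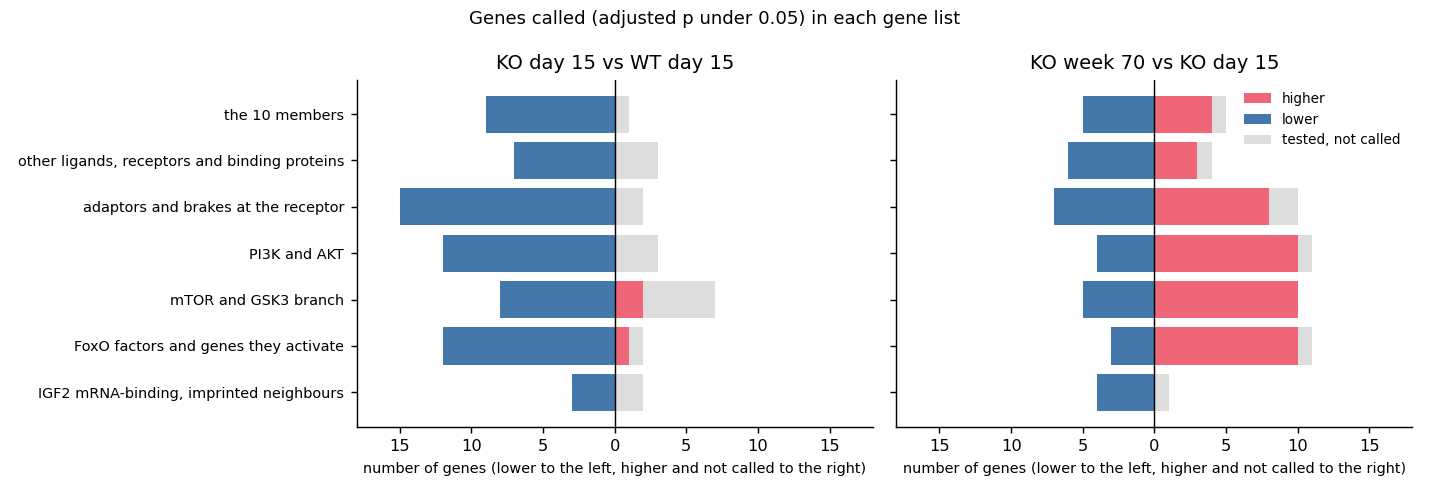
Number of tested genes (x axis) called lower (bars to the left), called higher or not called (bars to the right) among the members and in each of the 6 lists of other pathway genes, at day 15 by genotype (left) and in KO by age (right). At day 15 the bars point left, with 57 lower and 3 higher in the 6 lists, and by age they point both ways, with 29 lower and 41 higher.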

How the data were processed

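Raw counts for each Ensembl gene, 1 column per library, were deposited by the authors as a single table, per the file headers. The submitters' processing notes name FastQC, cutadapt, Trimmomatic, HISAT2, featureCounts and edgeR, and the builds GRCm38 and GRCm39, without saying which applied. Strand and multi-mapping settings are not given in the sources used here. Rows with a blank symbol (351 genes, 0.067% of counts) were kept under their identifiers.

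The main test was that of edgeR 4.0.16, run in R 4.3.3 (filterByExpr, TMM, two-sided quasi-likelihood F-test, Benjamini-Hochberg over all tested genes, threshold 0.05), on the 6 fetal libraries for genotype and the 5 KO libraries for age. The SE is that implied by the F statistic. CPM shown are TMM-scaled over all 8 libraries, and exon lengths came from GENCODE M 21. The fits were scaled over only the libraries compared, so fold changes differ somewhat from the ratios of the CPM shown. The SE and the SD take in the spread between libraries, whereas floors (3 counts, 0.144 to 0.213 CPM before scaling) cover counting error only. Length and GC offsets were smooths (mgcv 1.9.3) of each library's deviation on longest-transcript length and GC content, known for 99.5% of tested genes.

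Alternatives were RLE and upper-quartile scaling, other filters, DESeq2 1.42.0, all 8 libraries in 1 fit, the offsets, the replicate number as a block, removal of haemoglobin and mitochondrial genes, and each library left out. Named genes outside the members were, per list, up to 2 called in each direction with the largest change, a mean of at least 50 counts and no overlap, plus genes that illustrate a count. A gene that this rule takes is not reported here. The members and lists were chosen with earlier results of these data known. The fits were run on simulated counts in which few genes changed and no trend with length or GC was built in. That setting cannot show how the scaling or the offsets perform where most genes are called, as here. Per the labels' protocols the fetal libraries are biological replicates. The labels do not say this of the week 70 pair, which differed in Xist and Y-linked counts and so came from animals of different sex.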

Additional observations from a re-analysis of the deposited data

How the results depend on the processing

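At day 15, 9 members kept their direction and their call under all 16 alternatives. Igf1 changed sign, to 0.11 with upper-quartile scaling, 0.14 with the replicate block and 0.69 without WT replicate 1, and leaving out 1 library gave -0.38 to 0.69. For age, Igf1 was at -0.51 and not called with all 8 libraries in 1 fit, at 0.42 with length and GC offsets and at 0.32 with the offsets and the replicate block together. Igf2 was called with the offsets (-1.11, and -1.07 with the block as well), and Igfbp2 was not (0.18 and 0.17). Of the 60 other pathway genes called at day 15, 12 changed sign with the offsets, among them Igf2bp1 (0.24, and 0.24 with the block) and Igf2bp2 (0.041 and 0.042), and 22 were not called. By age 11 of 70 changed sign and 7 were not called. The cause was not tested. Upper-quartile scaling moved the median of all genes at day 15 from 0.03 to 0.20 and the calls from 5768 higher and 6225 lower to 7627 and 4915. For age it moved the median from -0.19 to -0.44.

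Same-numbered libraries did not deviate together (r of -0.139, -0.171 and -0.146 at day 15, 0.026 and 0.004 by age). These deviations were taken from group means of few libraries, so the r values constrain each other. They cannot settle whether the numbers mark a pairing. With the replicate block 11184 genes were called at day 15 and 14876 by age, and no call of a member changed except as given above. The shallowest libraries are those of KO day 15. Igf2, which was under 10 CPM there with 70 to 111 counts, had the largest SE of the members in both comparisons (0.523 by genotype and 0.248 by age). At day 15 its WT libraries were also widely spread, with replicate 1 at 92.0 CPM.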
